A study of Homo sapiens with 12 samples.

Results

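Departure from additivity of sgPNA-10b and sgPNA-21 was measured in U87, an established human glioblastoma cell line, with all 12 of the 12 mRNA libraries of the study. For each gene, the log2 change that sgPNA-21 made beside sgPNA-10b (PNA-10b+21 against PNA-10b) was set against the log2 change it made by itself (PNA-21 against control). The difference of those changes is the interaction, and it is 0 where the log2 change of the combination equals the sum of the log2 changes of the single treatments. It was fitted for 15715 of the 35741 genes in the deposited table.

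The 4 groups held 3 libraries each. In the PNA-10b group U87 cells received 150 nM of sgPNA-10b, in the PNA-21 group 150 nM of sgPNA-21, and in the PNA-10b+21 group 150 nM of both, for 72 h. The 3 treated groups received their sgPNA in nanoparticles (BNP), while the protocol lists no agent for the control group, whose genotype label is WT. The PNA-10b+21 group therefore had 2 agents at the full single dose, and no arm with empty nanoparticles or a control PNA is described, so effects of the carrier and of the sgPNA cannot be told apart. The labels give no separate cultures or days for the 3 libraries of a group, so p-values measure differences against the spread between these libraries, which may be technical.

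A microRNA is a short RNA that guides Argonaute proteins to messenger RNAs, mostly through pairing of its seed, a stretch near its 5′ end, with the 3′ UTR, and lowers their level or translation. A peptide nucleic acid (PNA) is a nucleic acid analogue whose sugar-phosphate chain is replaced by peptide-type links, and an anti-seed PNA pairs with the seed and so occupies the microRNA. Both miR-10b and miR-21 are known as microRNAs that are raised in glioblastoma and promote survival and invasion. An arithmetic point holds for every value that follows: a change of the same size in all 3 treated arms, whatever its source, enters the sum of the single changes 2 times and the combined change 1 time, and gives an interaction of the opposite sign.

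The mature miR-21-5p and the matches to its seed in known targets are shown because the seed is what sgPNA-21 is directed at. The seed, bases 2 to 8, is in capitals in the microRNA (RefSeq, GRCh38.p14, chromosome 17, 59841273 to 59841294, plus strand). In the 3′ UTR sites, taken from the GENCODE release 29 transcripts, capitals mark the 8mer match, which is the reverse complement of the seed followed by an A.
hsa-miR-21-5p: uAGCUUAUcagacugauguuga
PDCD4: agtggaatattctaATAAGCTA
RECK: tttcacagtttgaaATAAGCTA
SPRY2: gacccatgtattgcATAAGCTA
YOD1: ctctgggttttccaATAAGCTA
TIMP3: acccacatggggacATAAGCTA

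Total counts per library lay between 12846676 and 18305820, and the genes tested held 99.84% of all counts. All 6 U87 markers had counts in all 12 libraries, with VIM, the intermediate filament vimentin, at 1540 to 1970 CPM (counts scaled by library size). CD44, a hyaluronan receptor, was at 1280 to 1460 CPM and NES at 10.6 to 16.5 CPM. Summed, the 6 were at 9570 to 10900 CPM in control, 8680 to 9410 with sgPNA-10b, 8490 to 9010 with sgPNA-21 and 8670 to 9180 with both. Of the 6, CHI3L1, NES and SPARC had an interaction that passed the test, as did 3.12% of all genes. CDKN2A, CDKN2B and MTAP, which lie in a deletion known in U87, had 3, 1 and 2 counts over all 12 libraries. Summed levels of 6 neuron markers were 107 to 118 CPM in control, 100 to 111 with sgPNA-10b, 89.6 to 102 with sgPNA-21 and 84 to 95.6 with both. They came mostly from SNAP25 (60.8 to 86.7 CPM) and GAD1 (19.5 to 27.1 CPM), while GRIN1 was at 0 in 9 of the 12 libraries. Oligodendrocyte markers summed to 84 to 94.1 CPM over the 12 libraries, nearly all from CNP (83.1 to 93.2 CPM). Endothelium markers summed to 8.75 to 12.8 CPM. Microglia or macrophage markers summed to 17.4 to 18.4 CPM in control and to 10.2 to 14.4 in the treated groups, nearly all from CSF1R, with CX3CR1 at 0 in 11 libraries and PTPRC at 0 in 3. CSF1R itself had an interaction of 0.49 log2 that passed the test, and the part of these markers in the other results was not tested.

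The combination departed from the sum of the single treatments in 491 genes, 3.12% of those tested (edgeR quasi-likelihood test, Benjamini-Hochberg adjusted p under 0.05). In 233 of them (1.48%) the combined level lay above the additive expectation, and in 258 (1.64%) below it. The genes above the expectation had mostly fallen in both single arms: their median change was -0.39 log2 with sgPNA-10b, -0.44 with sgPNA-21 and -0.35 with both, where the median of the sums was -0.81. The genes below it had mostly risen: the medians were 0.28, 0.40 and 0.21, against a median sum of 0.69. The median size of the interaction was 0.46 log2 over the called genes and 0.15 over all genes tested, with a median standard error of 0.12. A total of 35 called genes reached 1 log2, 21 above and 14 below.

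In 484 of the 491 genes the single changes had the same sign and the combined change was smaller than their sum, and in 0 was it larger than a sum of same-sign changes. In the other 7 the single changes had opposite signs. Of all genes tested, 67.7% had the pattern of same-sign single changes and an interaction of the other sign. The single changes and the interaction share the control, PNA-10b and PNA-21 libraries, so that error in these libraries pushes the values towards this pattern, and the 484 are given with no test. On a linear CPM scale, where additive means adding differences and not ratios, 330 genes lay above and 305 below, and 483 of the 491 were among them. With libraries scaled by their totals in place of TMM factors, the split moved from 233 above and 258 below to 154 and 279.

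**Figure D1:**
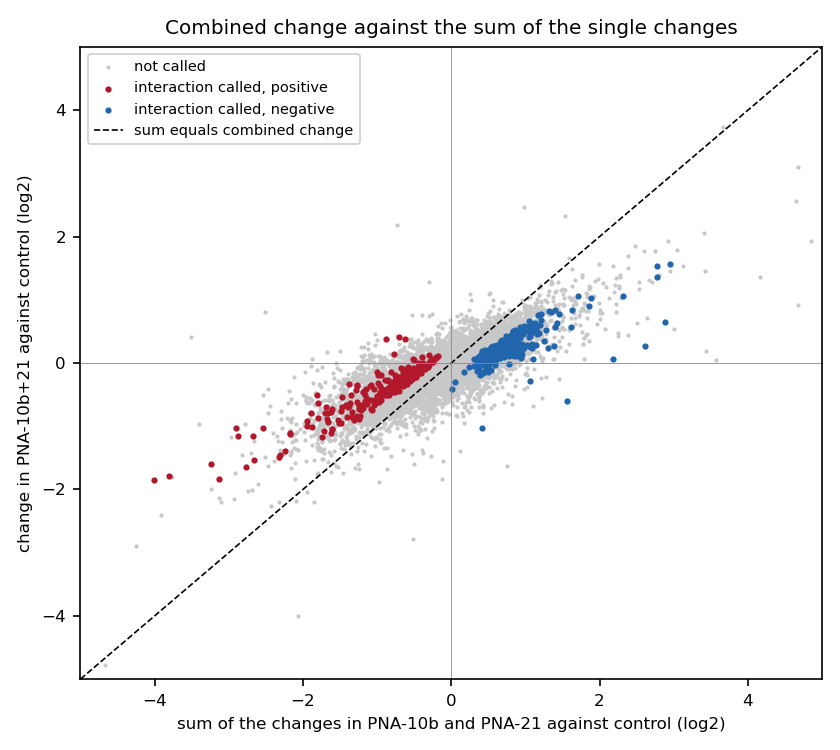
Each point is 1 of the genes tested, with the sum of its changes in PNA-10b and PNA-21 against control on the horizontal axis and its change in PNA-10b+21 against control on the vertical axis (log2), and the dashed line marks equality. The 233 genes with a positive interaction (red) lie above the line, mostly where the sum is negative, and the 258 with a negative one (blue) below it, mostly where the sum is positive. The axes leave out 10 genes, 1 of them called.

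The calls against control describe which arms had changed. In 276 of the 491 genes all 3 treated arms differed from control in the same direction, and in 202 of these no treated arm differed from another. In 54 genes both single arms differed from control and the combination did not. PNA-21 alone differed in 96, PNA-10b alone in 30, PNA-21 and the combination in 15, the combination alone in 2, and no arm in 17. In the remaining 1 all 3 arms differed from control, but not all in the same direction. Over all genes tested, 6.48% were called with sgPNA-10b against control, 29.8% with sgPNA-21 and 27% with both.

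Adding sgPNA-10b to sgPNA-21 changed no gene past the threshold: PNA-10b+21 against PNA-21 gave 0 calls of 15715 (0%) with edgeR and a smallest adjusted p of 0.266, although 1354 genes had an unadjusted p under 0.05. DESeq2 called 25 genes there, limma-voom 0, and edgeR with no filter on low counts 332. Adding sgPNA-21 to sgPNA-10b changed 1525 genes (9.7%, 4.61% higher and 5.1% lower), of which 103 are among the 491. A direct comparison of the single arms, PNA-21 against PNA-10b, gave 1067 calls (6.79%, 2.91% higher and 3.88% lower), with 114 among the 491. A gene can thus miss additivity in these data while PNA-10b+21 and PNA-21 do not differ past the threshold, and that was so for all 491 under edgeR. Of the 886 genes that both single arms changed in the same direction, 330 (37.2%) were called in the interaction, against 3.12% of all genes. The interaction of all 886 was opposite to the single changes. The 886 were picked by calls on libraries that also enter the interaction, which pushes both values up. They are therefore no added support.

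Extracellular matrix genes held the most calls above the additive expectation of the lists examined. Of 32 members tested, 18 were called above (1.48% of all genes) and 0 below (1.64%), with a median interaction of 0.37 against 0.01 over all genes. The list fell in each arm: 19 members were lower with sgPNA-10b (3.74% of all genes), 27 with sgPNA-21 (14.6%) and 28 with both (13.4%), with medians of -0.30, -0.59 and -0.56 log2. The combination thus had about the median of PNA-21 alone, where the median of the sums was -0.86. Called members included the fibrillar collagen genes COL1A1, COL1A2, COL3A1, COL5A1 and COL5A2, the fibronectin gene FN1 and the laminin chains LAMB1 and LAMC1. Without PNA-10b replicate 2, 7 members were called above.

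COL3A1, which encodes the chain of type III collagen (ENSG00000168542, chromosome 2, 188974320 to 189012746, plus strand, hg38), stood at 73.3, 64.6 and 101 CPM in control. It was at 26.9, 20.1 and 27.1 with sgPNA-10b, at 30.9, 22.6 and 27.1 with sgPNA-21, and at 17.8, 28.3 and 32.6 with both. Every treated library lay below every control library, and the 3 treated groups overlapped. Additivity would have put the combination at 8.36 CPM, and the interaction was 1.64 ± 0.25 log2 (SE, n = 3 libraries per group, edgeR adjusted p = 0.00399). The changes against control were -1.69 ± 0.17 with sgPNA-10b, -1.55 ± 0.17 with sgPNA-21 and -1.60 ± 0.17 with both.

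ITGA11, the integrin alpha chain of a collagen receptor (ENSG00000137809, chromosome 15, 68296533 to 68432162, minus strand), had 37.5, 29.2 and 40.9 CPM in control. It had 12.2, 12.1 and 13.2 with sgPNA-10b, 19.5, 15.3 and 13.1 with sgPNA-21, and 13.4, 14.8 and 20.2 with both. Again no treated library reached the control range, and the additive expectation of 5.56 CPM lay below all of them. Its interaction was 1.53 ± 0.21 log2 (edgeR adjusted p = 0.00208).

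LAMA5, a laminin alpha chain of basement membranes (chromosome 20, 62307955 to 62367312, minus strand), showed the same order with less spread. Control libraries had 51.8, 42.9 and 52.8 CPM, PNA-10b 25.4, 21.6 and 28.3, PNA-21 25.4, 24.6 and 27.5, and PNA-10b+21 24.8, 29.2 and 31.1, with 13.2 expected. The interaction was 1.09 ± 0.14 log2 (edgeR adjusted p = 0.00116). COL7A1, the anchoring fibril collagen, is more abundant: means ± SD (n = 3) were 692 ± 47.8 CPM in control, 434 ± 36.3 with sgPNA-10b, 395 ± 19.5 with sgPNA-21 and 409 ± 42.8 with both, against 248 expected, and its interaction was 0.72 ± 0.10 (edgeR adjusted p = 0.00208). SNED1, an extracellular matrix glycoprotein, had an interaction of 1.17 ± 0.17 (edgeR adjusted p = 0.00208).

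SPARC, a collagen-binding matrix protein, had an interaction of 0.36 ± 0.09 log2 (edgeR adjusted p = 0.0334). TNC, the matrix glycoprotein tenascin C, missed the threshold at 0.22 ± 0.09 (edgeR adjusted p = 0.18). CEMIP, which takes part in hyaluronan breakdown, and TMEM119, a membrane protein known in osteoblasts and microglia, were called but vary strongly within a group. Their interactions were 1.72 ± 0.29 and 1.88 ± 0.30. Control replicate 2 had the lowest control level of both, with CEMIP at 65.3, 38.1 and 83.7 CPM and TMEM119 at 20.2, 13.4 and 25.8.

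ANGPT1, the TIE2 ligand angiopoietin 1, fell further in the combination than with sgPNA-10b. Its libraries had 34.7, 36.1 and 39.5 CPM in control, 18, 15.4 and 20.1 with sgPNA-10b, 14.5, 14.2 and 16.7 with sgPNA-21, and 11.4, 14.7 and 14.2 with both. The combination lay below PNA-10b by -0.41 ± 0.11 log2 (edgeR adjusted p = 0.0213), and above the 7.31 CPM expected, with an interaction of 0.86 ± 0.15 (edgeR adjusted p = 0.00625).

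Cholesterol synthesis and uptake genes lay below the additive expectation. Of 25 members tested, 14 were called below (1.64% of all genes) and 0 above (1.48%), with a median interaction of -0.35. In PNA-10b 18 members had risen (2.75% of all genes), with sgPNA-21 21 (15.2%) and with both 20 (13.6%), with medians of 0.35, 0.40 and 0.41 log2. Each sgPNA alone thus gave about the rise of the combination, against a median sum of 0.66. With either PNA-10b replicate 2 or PNA-10b+21 replicate 2 left out, 9 members were called below.

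HMGCS1, the synthase that makes HMG-CoA for sterol synthesis (ENSG00000112972, chromosome 5, 43289395 to 43313512, minus strand), had the smallest adjusted p of the named genes. Its levels were 110, 118 and 118 CPM in control, 173, 184 and 187 with sgPNA-10b, 162, 152 and 177 with sgPNA-21, and 157, 151 and 170 with both. All 9 treated libraries lay above all control libraries, and all 3 libraries of the combination lay below each PNA-10b library. Expected at 257 CPM, the combination had an interaction of -0.69 ± 0.08 log2 (edgeR adjusted p = 0.00103).

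INSIG1, which holds the sterol sensor SCAP in the endoplasmic reticulum, averaged 377 ± 25.7 CPM in control, 512 ± 37.9 with sgPNA-10b, 584 ± 15.9 with sgPNA-21 and 553 ± 27.1 with both (SD, n = 3), where 793 were expected. Its interaction was -0.52 ± 0.08 log2 (edgeR adjusted p = 0.00625). IDI1, an isomerase of the isoprenoid steps, averaged 66.8 ± 7.30, 92.8 ± 8.62, 100 ± 2.75 and 88.7 ± 7.15 CPM in the same order, with 140 expected and an interaction of -0.65 ± 0.11 (edgeR adjusted p = 0.00625). Of 12 fatty acid synthesis genes 2 were called below (1.64% of all genes), FADS2, a fatty acid desaturase, at -0.47 and ACSL3, an acyl-CoA synthetase, at -0.26.

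Genes of the ATF4 response, which is switched on by amino acid shortage and other stresses that slow translation, also lay below the expectation, and most of the members that rose did so with sgPNA-10b. Of 30 members tested, 13 were called below the additive expectation (1.64% of all genes) and 0 above (1.48%). The median interaction was -0.32, and all 30 had a negative value. In PNA-10b 16 members had risen (2.75% of all genes), with sgPNA-21 10 (15.2%) and with both 6 (13.6%), with medians of 0.27, 0.15 and 0.11 log2. In the arms with sgPNA-21, 2 members each were lower than control. Against PNA-10b the combination was lower in 13 members (5.1% of all genes) and higher in 1. The count of 13 in the interaction fell to 3 without control replicate 1, 4 without control replicate 3, 3 without PNA-10b replicate 2 and 4 without PNA-21 replicate 2. Leaving out PNA-21 replicate 1 gave 8, and leaving out PNA-10b+21 replicates 1, 2 and 3 in turn gave 8, 4 and 8.

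PSAT1, an aminotransferase of serine synthesis (ENSG00000135069, chromosome 9, 78297143 to 78330093, plus strand), had 63.6, 64.0 and 51.5 CPM in control and 85.7, 114 and 81.8 with sgPNA-10b. It had 71.4, 80.7 and 70.5 with sgPNA-21 and 67.3, 61.5 and 69.6 with both. The combination overlapped control and lay below every PNA-10b library, with a difference from PNA-10b of -0.51 ± 0.10 log2 (edgeR adjusted p = 0.00237). Its interaction was -0.81 ± 0.14 (edgeR adjusted p = 0.00657).

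SLC7A11, the cystine importer of the xCT exchanger (ENSG00000151012, chromosome 4, 138164097 to 138242349, minus strand), had 34.7, 40.0 and 29.8 CPM in control, 44.1, 57.9 and 52.4 with sgPNA-10b, 40.8, 52.8 and 44.0 with sgPNA-21, and 37.8, 34.4 and 39.1 with both. Both single arms lay wholly above control and the combination lay within the control range. The change in the combination was 0.08 ± 0.11 log2 (edgeR adjusted p = 0.622), and the interaction -0.86 ± 0.15 (edgeR adjusted p = 0.00625). TRIB3, a pseudokinase induced by ATF4, averaged 16.3 ± 1.37, 25.5 ± 3.01, 22.3 ± 3.33 and 20.1 ± 1.11 CPM in control, PNA-10b, PNA-21 and PNA-10b+21 (SD, n = 3), and its interaction was -0.79 ± 0.15 (edgeR adjusted p = 0.00864).

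Promoters were searched because members of the cholesterol and ATF4 lists moved together. In the 250 bases upstream of the RefSeq start (GRCh38.p14, both strands), TGATGNAA, a core of the element bound by ATF4 and C/EBP proteins, was found in 4 of the 22 ATF4 response promoters available (18.2%) and in 160 of 10406 promoters of genes tested (1.54%). TCACNCCAC, the sterol regulatory element, was found in 1 of 18 cholesterol promoters (5.56%) and in 96 of the 10406 (0.923%). It was also in 1 of 20 immediate early promoters (5%), in 2.72% of the promoters of genes called above and in 2.53% of those called below, so nothing particular to the cholesterol list is read from it. For TGATGNAA these shares were 5%, 2.17% and 2.53%, and over all 27305 promoters, of genes tested or not, 3.19%. The ATF4 list was chosen as genes of that response, and its promoters were not limited to genes tested. Its share is therefore no result about the interaction. These are matches of letters, not sites shown to be bound. The promoters of a called member of each list with a match follow, chosen for the match, with it in capitals. ATF3, a stress-induced transcription factor, is at chr1:212565157-212565406 and SREBF2, the regulator of sterol synthesis genes, at chr22:41832855-41833104, both on the plus strand.
ATF3: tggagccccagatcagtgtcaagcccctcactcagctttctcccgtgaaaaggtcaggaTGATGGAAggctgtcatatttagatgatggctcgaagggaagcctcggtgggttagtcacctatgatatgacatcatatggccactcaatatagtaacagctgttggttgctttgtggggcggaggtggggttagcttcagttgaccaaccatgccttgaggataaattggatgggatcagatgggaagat
SREBF2: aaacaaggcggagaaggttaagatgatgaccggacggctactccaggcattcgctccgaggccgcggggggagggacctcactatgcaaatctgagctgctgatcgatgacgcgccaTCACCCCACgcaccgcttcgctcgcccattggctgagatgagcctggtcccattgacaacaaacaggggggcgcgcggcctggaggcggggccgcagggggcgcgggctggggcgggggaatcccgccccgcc

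**Figure D2:**
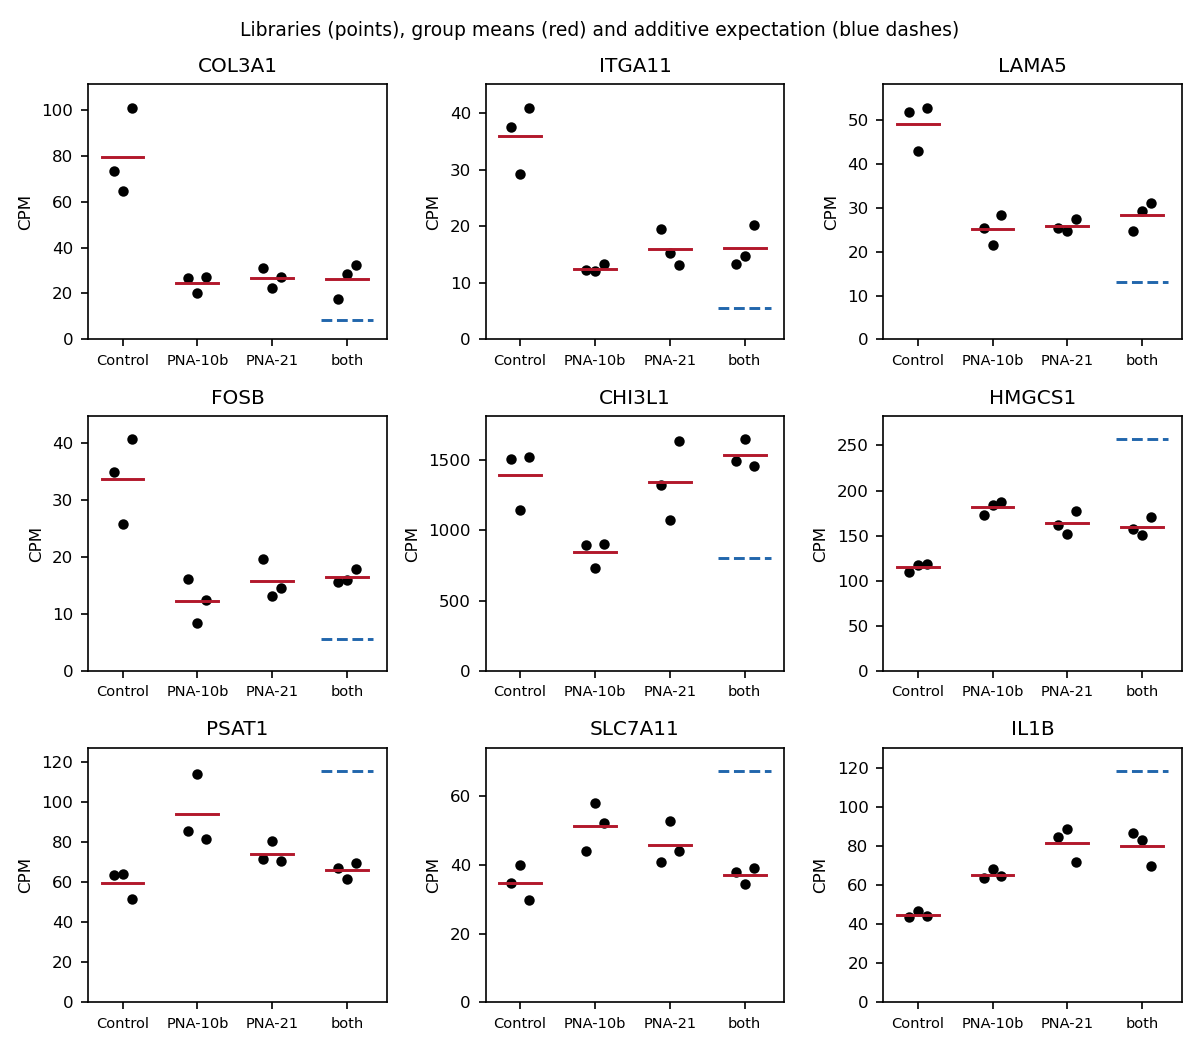
CPM of 9 genes on the vertical axes for the 12 libraries (points), with group means (red lines) and, for the combination, the level at which the interaction would be 0 (blue dashes). In all 9 panels the 3 libraries of the combination lie on the same side of the expectation as the control mean, for example COL3A1 above 8.36 CPM and HMGCS1 below 257 CPM.

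A smaller set of genes changed with sgPNA-10b and not when sgPNA-21 was also present. Of the 30 called genes in which PNA-10b was the lone arm to differ from control, 18 were lower and 12 higher in it. In 29 the combination also differed from PNA-10b (9.7% of all genes). The 30 were picked by calls on the same libraries that favour such a difference, so the 29 are no added support. CHI3L1, a secreted glycoprotein abundant in glioblastoma (ENSG00000133048, chromosome 1, 203178931 to 203186749, minus strand), had 1508, 1145 and 1522 CPM in control and 897, 731 and 906 with sgPNA-10b. It had 1321, 1072 and 1636 with sgPNA-21 and 1493, 1648 and 1460 with both. PNA-10b lay wholly below the other 3 groups, which overlapped. The combination was above PNA-10b by 0.86 ± 0.12 log2 (edgeR adjusted p = 7.09e-05), while PNA-21 differed from control by -0.05 ± 0.12 (edgeR adjusted p = 0.786). The interaction was 0.91 ± 0.17 (edgeR adjusted p = 0.00822).

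EPHA2, an ephrin receptor tyrosine kinase (ENSG00000142627, chromosome 1, 16124337 to 16156087, minus strand), had the same order. Its libraries had 43.6, 39.4 and 41.7 CPM in control, 30.4, 28.1 and 30.8 with sgPNA-10b, 44.4, 38.9 and 38.1 with sgPNA-21, and 40.7, 43.2 and 46.7 with both. The 3 PNA-10b libraries were the lowest of the 12, and the interaction was 0.59 ± 0.10 log2 (edgeR adjusted p = 0.0063). MMP14, a membrane-bound collagenase, at 0.30 ± 0.07 (edgeR adjusted p = 0.0328), and AKR1C1, a ketosteroid reductase, at 0.54 ± 0.13 (edgeR adjusted p = 0.0305), also differed from control with sgPNA-10b and in no other arm. The call was lost in 7 of the 12 fits that left out a library for MMP14 and in 6 for AKR1C1, over which the interaction ran from 0.26 to 0.36 and from 0.43 to 0.64.

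ECM2, a small matrix glycoprotein gene of low level, had the opposite direction: 2.15, 3.06 and 2.18 CPM in control, 3.69, 4.24 and 4.31 with sgPNA-10b, 2.66, 3.35 and 3.49 with sgPNA-21, and 2.06, 1.77 and 2.26 with both. PNA-10b lay above all libraries of the other groups. The combination was lower than PNA-10b by -1.003 ± 0.192 log2 (edgeR adjusted p = 0.0017), and the interaction was -1.35 ± 0.27 (edgeR adjusted p = 0.0118).

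Immediate early genes, the transcription factors and phosphatases that answer growth signals within minutes, gave 7 calls above (1.48% of all genes) and 1 below (1.64%) among 26 tested, with a median interaction of 0.12. The 1 call below is near the share over all genes. FOSB, an AP-1 subunit (ENSG00000125740, chromosome 19, 45467995 to 45475179, plus strand), stood at 34.9, 25.8 and 40.8 CPM in control, 16.1, 8.43 and 12.5 with sgPNA-10b, 19.7, 13.1 and 14.5 with sgPNA-21, and 15.7, 16.0 and 17.9 with both. No treated library reached the lowest control library, and the interaction was 1.52 ± 0.25 log2 (edgeR adjusted p = 0.00625). For NR4A1, an orphan nuclear receptor, it was 1.30 ± 0.27 (edgeR adjusted p = 0.0153), and for JUNB, another AP-1 subunit, 0.38 ± 0.08 (edgeR adjusted p = 0.0163). NR4A1 lost the call without control replicate 1 and without PNA-10b replicate 2, and JUNB without these and PNA-21 replicate 2. The 7 calls became 1 without control replicate 1, 3 without control replicate 3, 1 without PNA-10b replicate 2, 2 without PNA-21 replicate 2 and 3 without PNA-10b+21 replicate 2.

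Cytokine and chemokine genes had the lowest list median, -0.47, with 5 called below (1.64% of all genes) and 1 above (1.48%) of 19 tested. Nothing is read from the 1 call above. IL1B, the cytokine interleukin 1 beta, had 43.8, 46.8 and 44.2 CPM in control, 63.5, 68.3 and 64.9 with sgPNA-10b, 84.6, 88.7 and 71.8 with sgPNA-21, and 86.9, 83.1 and 70.1 with both. The levels rose from control to PNA-10b to the 2 arms with sgPNA-21, which overlapped and lay under the 119 CPM expected. Its interaction was -0.57 ± 0.11 log2 (edgeR adjusted p = 0.0101). IL1A, interleukin 1 alpha, had an interaction of -1.04 ± 0.23 (edgeR adjusted p = 0.0203), with changes of 0.54 with sgPNA-10b, 0.56 with sgPNA-21 and 0.06 with both. CXCL2, a neutrophil-attracting chemokine, was at -0.63 ± 0.14 (edgeR adjusted p = 0.018). The 5 calls became 1 without control replicate 1, 8 without control replicate 2, 1 without control replicate 3, 3 without PNA-10b replicate 2, 1 without PNA-21 replicate 2 and 2 without PNA-10b+21 replicate 2. IL1A lost its call in 6 and CXCL2 in 3 of the 12 fits that left out a library.

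Among the other genes below the expectation, SERPINB2, ATP6V0D2 and C6orf223 had risen in every arm. SERPINB2, a plasminogen activator inhibitor, averaged 2.37 ± 0.04 CPM in control, 4.70 ± 0.49 with sgPNA-10b, 8.25 ± 2.30 with sgPNA-21 and 6.12 ± 1.45 with both (SD, n = 3). Its interaction was -1.40 ± 0.29 log2 (edgeR adjusted p = 0.0137), a call lost without control replicate 1. ATP6V0D2, part of the V-ATPase proton pump, averaged 2.21 ± 0.72, 5.65 ± 1.20, 7.01 ± 1.53 and 6.69 ± 0.72 CPM in the same order, with an interaction of -1.38 ± 0.29 (edgeR adjusted p = 0.0135) that lost its call without control replicate 1 or PNA-10b replicate 2. C6orf223 had an interaction of -0.86 ± 0.14 (edgeR adjusted p = 0.00579) and GULP1, an adaptor for engulfment of dying cells, -0.85 ± 0.17 (edgeR adjusted p = 0.0101). ADAMTS5, a protease of the proteoglycan aggrecan, was at -0.66 ± 0.13 (edgeR adjusted p = 0.0101), and its change in the combination was 0.12 ± 0.09 against 0.41 ± 0.09 with sgPNA-10b and 0.36 ± 0.09 with sgPNA-21.

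Most G2 and M phase genes rose in each treated arm, most S phase genes rose in the arms with sgPNA-21, and few of either passed the test of the interaction. Of 29 G2 and M phase genes 22 rose with sgPNA-10b (2.75% of all genes), 27 with sgPNA-21 (15.2%) and 27 with both (13.6%), and of 34 S phase genes 7, 29 and 31. In the interaction, where 1.64% of all genes were called below, 3 of the G2 and M phase genes were, with a median of -0.22 and 28 negative values, and 2 of the S phase genes, with a median of -0.10. CCNA2, cyclin A2, was at -0.44 ± 0.10 log2 (edgeR adjusted p = 0.0206), CDK1, the mitotic kinase, at -0.36 ± 0.09 (edgeR adjusted p = 0.0352), and HMMR, a spindle-associated protein, at -0.48 ± 0.12 (edgeR adjusted p = 0.032). The count of 3 became 0 without control replicate 1, control replicate 3, PNA-10b replicate 2, PNA-21 replicate 2, PNA-10b+21 replicate 2 or PNA-10b+21 replicate 3. It became 9 without control replicate 2 and 5 without PNA-10b replicate 1. The 2 S phase calls became 0 when control replicate 1 or 3, PNA-10b replicate 2, PNA-21 replicate 2 or PNA-10b+21 replicate 2 was left out, and 1 when PNA-21 replicate 1 or PNA-10b+21 replicate 3 was. They became 3 without control replicate 2 or PNA-10b replicate 1.

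Hypoxia and glycolysis genes were close to the additive expectation. With sgPNA-21 33 of 36 members fell (14.6% of all genes), with both 34 (13.4%) and with sgPNA-10b 5 (3.74%), with medians of -0.45, -0.55 and -0.08 log2. The median interaction was 0.01, with 18 values on each side of 0. P4HA2, a collagen prolyl hydroxylase, was the 1 member called (above, as were 1.48% of all genes), at 0.33 ± 0.08 (edgeR adjusted p = 0.0402). It lost the call in 9 of the 12 fits that left out a library. ADM, the vasodilator peptide adrenomedullin, was at 0.31 ± 0.11 (edgeR adjusted p = 0.105), and ERO1A, an oxidase of the endoplasmic reticulum, at -0.30 ± 0.11 (edgeR adjusted p = 0.134).

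**Figure D3:**
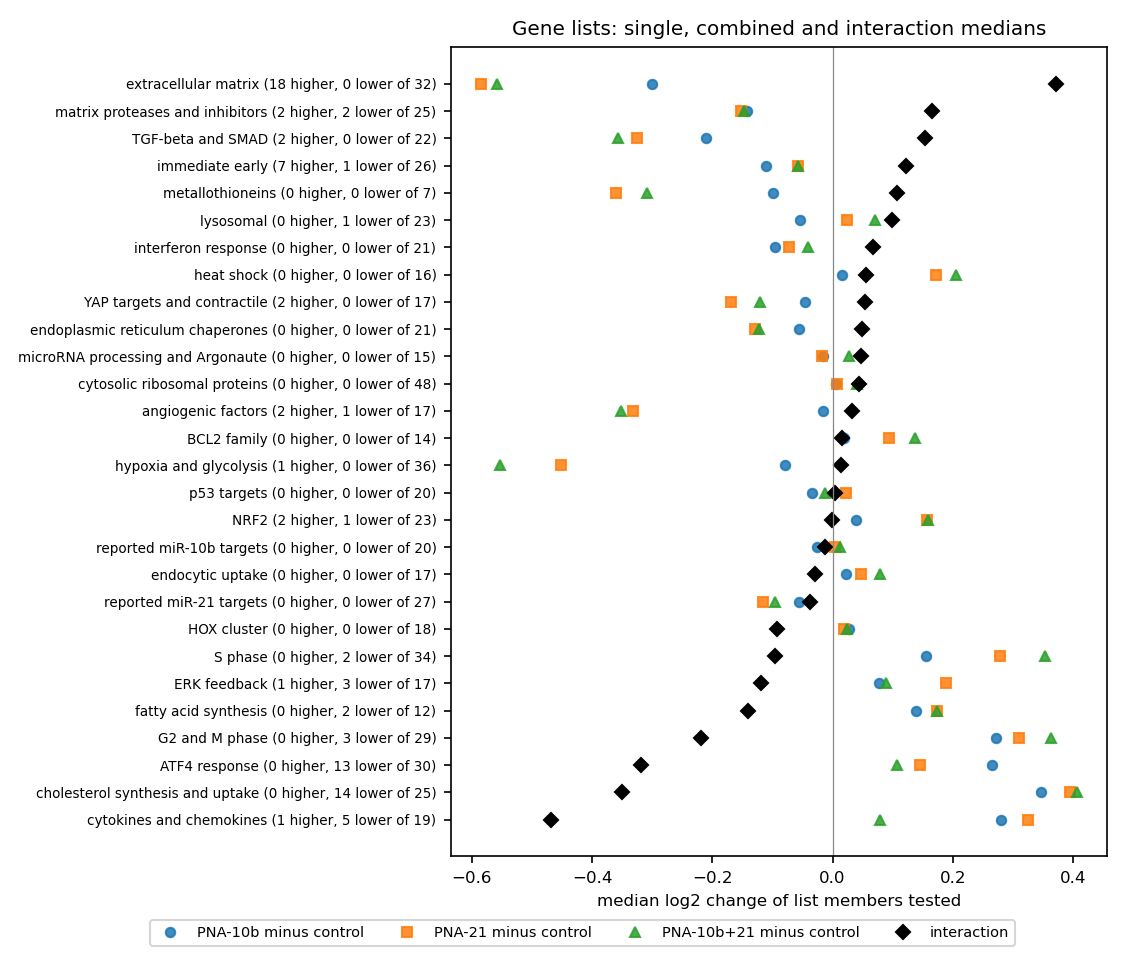
Medians over the tested members of 28 gene lists (horizontal axis, log2) of the change in each treated arm against control and of the interaction (black diamonds), with the count of members called above and below the expectation beside each list name. Extracellular matrix genes, at 0.37, and cytokine, cholesterol and ATF4 genes, at -0.47, -0.35 and -0.32, have the interaction medians farthest from 0.

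Reported targets of the 2 microRNAs gave 0 calls in the interaction with edgeR, over 27 tested for miR-21 (median -0.04) and 20 for miR-10b (median -0.01). At an unadjusted p under 0.05 there were 10 and 4, against 2933 over the 15715 genes tested. DESeq2 called 2 of the miR-21 and 0 of the miR-10b targets, limma-voom 0 of both, and edgeR with no filter on low counts 3 and 1. For miR-21 targets edgeR called 3 above and 3 below without control replicate 2, and 1 above and 2 below without PNA-10b replicate 1. It called 1 above when PNA-21 replicate 1 or 3 was left out, and 1 below when PNA-10b+21 replicate 3 was. For miR-10b targets it called 1 below without PNA-10b replicate 1. Of the targets whose sites are printed, PDCD4, a translation inhibitor, was at 0.12 ± 0.10 log2 (edgeR adjusted p = 0.578). RECK, an inhibitor of matrix proteases, was at 0.17 ± 0.09 (edgeR adjusted p = 0.358), and SPRY2, an inhibitor of growth factor signalling, at -0.12 ± 0.08 (edgeR adjusted p = 0.482).

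The members nearest the threshold were TIMP3 and YOD1. TIMP3, a metalloprotease inhibitor bound to the matrix, had 67.7, 63.2 and 71.1 CPM in control, 58.1, 52.2 and 57.6 with sgPNA-10b, 32.8, 34.8 and 39.7 with sgPNA-21, and 36.4, 39.9 and 38 with both. It fell in the arms with sgPNA-21 to the same range, and the interaction was 0.35 ± 0.10 log2 (edgeR adjusted p = 0.0589). It passed in 8 of 22 alternatives, among them DESeq2 (adjusted p = 0.0432), the fit with no filter on low counts, and the fits that left out control replicate 2, replicate 1 with sgPNA-10b or replicate 3 with sgPNA-21. Over the 22 its adjusted p ran from 0.0243 to 0.183. YOD1, a deubiquitinase, had 9.38, 12.4 and 9.44 CPM in control, 10.5, 13.5 and 15.1 with sgPNA-10b, 16.3, 20.8 and 16.4 with sgPNA-21, and 15.2, 12.8 and 14.6 with both, with an interaction of -0.64 ± 0.19 (edgeR adjusted p = 0.064, and 0.0321 with DESeq2). Its PNA-21 libraries lay above all others. YOD1 passed in 5 of 22 alternatives, among them the fits without control replicate 2 or PNA-10b replicate 1, and its adjusted p ran from 0.00067 to 0.174.

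Among miR-10b targets TIAM1, an activator of the GTPase RAC, was at 0.17 ± 0.10 log2 (edgeR adjusted p = 0.343). NF1, an inhibitor of RAS, was at 0.00 ± 0.07 (edgeR adjusted p = 0.994), and KLF4, a transcription factor, at -0.06 ± 0.13 (edgeR adjusted p = 0.859). HOXD10, a homeobox factor long reported as a miR-10b target, was near the detection limit at 0.59 to 1.16 CPM, and its interaction of -0.14 ± 0.45 has a wide error.

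Genes were also sorted by the letters ATAAGCT, the reverse complement of the miR-21-5p seed, in their longest annotated 3′ UTR. Over 12258 genes with a 3′ UTR, 1338 held a match, and 14 of these were called above and 50 below the expectation (4.78% called), with a median interaction of -0.04. Of the 10920 genes with no match 215 were called above and 198 below (3.78%), with a median of 0.01. The difference of the medians was -0.06 log2. The same difference taken on the levels of single libraries, not on the interaction, had an SD of 0.02 between libraries of a group. That SD is not the error of the -0.06, which was not estimated. The matched genes had longer 3′ UTRs, a median of 3398 bases against 1507, and the part of length in the difference was not tested.

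Lists with 0 calls in the interaction with edgeR were heat shock (16 tested), endoplasmic reticulum chaperone (21), interferon response (21), metallothionein (7), p53 target (20), BCL2 family (14), HOX cluster (18), microRNA processing and Argonaute (15), cytosolic ribosomal protein (48) and endocytic uptake (17) genes. Of these 197 genes 30 had an unadjusted p under 0.05, DESeq2 called 4, limma-voom 0 and edgeR with no filter on low counts 5. With a library left out, up to 1 gene in a direction was called in the heat shock, chaperone, metallothionein, p53, BCL2 and endocytic lists, and 0 in the other 4. Their list medians lay between -0.09 for the HOX cluster and 0.11 for the metallothioneins. The lists left had few calls, where 1.48% of all genes were called above and 1.64% below. Above and below, ERK feedback had 1 and 3 of 17 tested, TGF-beta and SMAD 2 and 0 of 22, and YAP targets 2 and 0 of 17. NRF2 had 2 and 1 of 23, angiogenic factors 2 and 1 of 17, matrix proteases 2 and 2 of 25, and lysosomal genes 0 and 1 of 23. Nothing about a list is read from these small counts. Among the called genes CCN2, a secreted matricellular protein induced by YAP and TGF-beta, was at 0.93 ± 0.20 log2 (edgeR adjusted p = 0.0191). It is counted in both the TGF-beta and the YAP list. DUSP6, the ERK phosphatase, was at -0.46 ± 0.11 (edgeR adjusted p = 0.0325). Without 1 library the call was lost in 6 of 12 fits for CCN2 and in 7 for DUSP6.

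How many genes were called depended strongly on single libraries. The counts above and below were 233 and 258 with all libraries, 451 and 577 with control replicate 2 left out, and 304 and 547 with PNA-10b replicate 1 left out. Leaving out control replicate 1 gave 61 and 49, control replicate 3 gave 71 and 55, PNA-10b replicate 2 gave 44 and 48, and PNA-10b replicate 3 gave 145 and 111. For PNA-21 replicate 2 they were 67 and 57, and for PNA-10b+21 replicates 1, 2 and 3 they were 191 and 163, 88 and 66, and 90 and 150. In sign, 0 of the 491 genes differed in any of the 22 alternatives run in which they could be fitted.

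Genes mentioned only as called list members or markers, among them COL1A1, FN1, ATF3, SREBF2 and CSF1R, were not followed by name through the alternatives. Of the 61 genes followed by name that passed the test, 22 also passed in every alternative that gave them a value. Those above the expectation were COL3A1, ITGA11, LAMA5, COL7A1, SNED1, CEMIP, TMEM119, FOSB, CHI3L1, EPHA2 and ANGPT1. Those below were HMGCS1, INSIG1, IDI1, PSAT1, SLC7A11, TRIB3, IL1B, ECM2, ADAMTS5, C6orf223 and GULP1. The interaction of COL3A1 ran from 1.44 to 1.86 log2 over the 12 fits that left out a library, that of HMGCS1 from -0.74 to -0.63, and that of CHI3L1 from 0.77 to 1.08. Among the other 39, calls were lost most often without control replicate 1 (38 genes), PNA-10b replicate 2 (37), PNA-21 replicate 2 (33) and control replicate 3 (32). Leaving out control replicate 1, PNA-10b replicate 2 or PNA-10b+21 replicate 2 removed the calls of SPARC, MMP14, AKR1C1, IL1A, CCN2, DUSP6, CCNA2, CDK1, HMMR, FADS2, ACSL3 and P4HA2. Leaving out control replicate 3, PNA-21 replicate 2 or PNA-10b+21 replicate 3 removed those of the same genes except FADS2. CXCL2 lost its call without control replicate 1, control replicate 3 or PNA-21 replicate 2. Over these fits the interaction ran from 0.30 to 0.42 log2 for SPARC, from -0.54 to -0.39 for CCNA2, from -1.22 to -0.92 for IL1A, from 0.79 to 1.12 for CCN2 and from -0.76 to -0.52 for CXCL2.

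**Figure D4:**
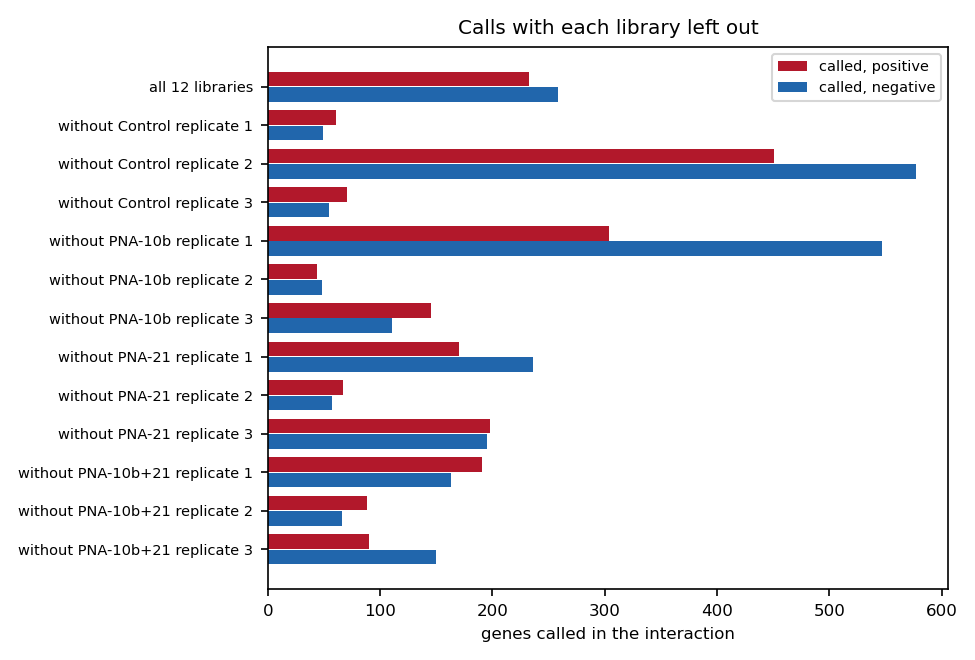
Number of genes called in the interaction (horizontal axis), above the additive expectation (red bars) and below it (blue bars), with all 12 libraries and with each library left out. The counts run from 44 and 48 without PNA-10b replicate 2 to 451 and 577 without control replicate 2.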

How the data were processed

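The authors deposited 1 table of raw read counts per Ensembl gene, with 12 columns and no normalization. Per the submitters' processing notes HISAT2 2.1.0, SAMtools 1.7, HTSeq 0.11.0 and hg38 were used, and the libraries were stranded mRNA per the labels' protocols. Neither the counter's strand option nor the gene annotation is given in the sources used here, and values of overlapping and antisense genes are uncertain. Totals were 12846676 to 18305820 counts.

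Genes passed filterByExpr at a minimum count of 10 (15715 of 35741). All 12 libraries entered 1 edgeR 4.0.16 quasi-likelihood fit (R 4.3.3, TMM, a mean per group), and the interaction was PNA-10b+21 minus PNA-10b minus PNA-21 plus control, called where the p adjusted by Benjamini-Hochberg over the 15715 genes was under 0.05. DESeq2 1.42.0 and limma-voom (3.58.1), other scalings and filters, a linear scale, and each library left out were alternatives. CPM used TMM-scaled totals and a prior count of 0.5 for log2 values. Tested on simulated data for the interaction over 15715 genes, 37.3% of 1.25-fold, 74.6% of 1.5-fold and 87.9% of 2-fold changes were recovered, with 8 false calls. There 200 genes were changed in the combined arm only, with none changed in a single arm. Most called genes here had changes in the single arms, so these rates need not hold for them.

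Followed by name were the 12 largest interactions in each direction (called, mean log2 CPM of at least 1, SD within each group under 0.5), up to 4 called genes over that SD, up to 3 members of each list by smallest p, and reported targets. Some other called list members and markers were mentioned only. The 34 lists (732 entries, 17 matched to no gene) and the members were chosen with earlier results of these data known. Seed matches were sorted for miR-21-5p, and miR-10b-5p sites were not analysed here. No libraries of a group held identical counts.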

Additional observations from a re-analysis of the deposited data

Results flagged for a closer look

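The combination departed from the sum of the single changes (edgeR quasi-likelihood test, Benjamini-Hochberg adjusted p under 0.05) in 233 genes with a positive and 258 with a negative interaction. In 202 of the called genes all treated arms differed from control in the same direction and no treated arm differed from another. A change of the same size in all treated arms also gives an interaction. Whether these values reflect an effect between the sgPNAs was not tested, since no arm with empty nanoparticles or a control PNA is described. Other called genes mentioned above, such as COL1A1, FN1 and CSF1R, were not followed by name and are left out. The 61 genes followed by name and past the interaction test are given here with their interaction in log2, 3 libraries per group. All of these share the same control libraries.

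Matrix, adhesion and invasion genes above the expectation were CEMIP at 1.72, COL3A1 at 1.64, ITGA11 at 1.53, SNED1 at 1.17, LAMA5 at 1.09, COL7A1 at 0.72, SPARC at 0.36, P4HA2 at 0.33 and MMP14 at 0.3. Signalling and transcription genes above it were FOSB at 1.52, NR4A1 at 1.3, CCN2 at 0.93, TGFB3 at 0.73, EPHA2 at 0.59, JUNB at 0.38, ANGPT1 at 0.86 and NRP1 at 0.29. The others above it were TMEM119 at 1.88, SLITRK6 at 1.3, GRIP2 at 1.13, CYTIP at 1.11, C5AR2 at 1.07, LFNG at 1.05, TSPAN1 at 1.05, CHI3L1 at 0.91, NES at 0.63, AKR1C1 at 0.54, AKR1B1 at 0.48 and TPM2 at 0.43.

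Lipid and amino acid metabolism genes below it were SLC7A11 at -0.86, PSAT1 at -0.81, TRIB3 at -0.79, HMGCS1 at -0.69, IDI1 at -0.65, INSIG1 at -0.52, FADS2 at -0.47 and ACSL3 at -0.26. Cytokine, survival and growth signal genes below it were BIRC3 at -1.05, IL1A at -1.04, CXCL2 at -0.63, IL1B at -0.57, FGF2 at -0.56, DUSP6 at -0.46 and ETV5 at -0.33. Cell cycle genes were HMMR at -0.48, RFC3 at -0.46, CCNA2 at -0.44, CDK1 at -0.36 and RRM2 at -0.33. Matrix, protease and protease inhibitor genes below it were SERPINB2 at -1.4, ECM2 at -1.35 and ADAMTS5 at -0.66. The others below it were ATP6V0D2 at -1.38, AC078850.1 at -1.26, LINC02392 at -1.25, PARD6B at -1.1, BMI1 at -1.06, SLC16A6 at -0.96, UBE2D1 at -0.9, C6orf223 at -0.86 and GULP1 at -0.85. TMEM119, CEMIP, LINC02392 and BMI1 varied by an SD of at least 0.5 log2 within a group.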

How the results depend on the processing

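With 233 genes above and 258 below, DESeq2 gave 273 and 356, limma-voom 214 and 229, and library totals in place of TMM 154 and 279. With no filter on low counts the numbers were 350 and 724, and 1034 in place of 484 genes had a combined change smaller than the sum. Without genes that vary strongly within a group 336 lay above and 393 below. Leaving out each library in turn gave 44 to 451 above, 48 to 577 below and 91 to 1021 smaller than the sum. The difference between genes with and without a miR-21-5p seed match was -0.0572 log2, -0.0741 for 8mers, and -0.0747 to -0.0471 with a library left out. A replicate block gave 334 above and 376 below. Same-numbered libraries had correlations of -0.161 to 0.205 over 18 pairs, 4 of them over 0.1. Of the 12 libraries, 6 correlated best with a library of their own number. These values do not settle whether same-numbered libraries were paired. The causes of these shifts were not tested.

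Carrier and sgPNA effects cannot be told apart against this control, mature microRNAs were not measured, and the standard error of an interaction, 0.124 log2 at the median, limits which small departures can be detected with 3 libraries per group.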
